A study of Sus scrofa with 32 samples.

Results

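The receptor tyrosine kinase gene KIT, its ligand gene KITLG and the genes PDGFRA and KDR, which flank KIT on pig chromosome 8, were followed in fetal longissimus dorsi, the long muscle of the back. These 4 genes were taken by symbol from the 30413 loci of the deposited table, with 1 locus each. They were chosen by their values in the genotype comparison, where KIT was already known to differ. The genotype values of the 4 genes are therefore given as a description without a test. Sex, litter and the relations among the genes had no part in that choice and were tested.

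The study compared 16 crossbred fetuses, sired by Large White boars, with 16 purebred Iberian fetuses at day 77 of gestation, with 8 females and 8 males in each genotype. All dams were pure Iberian sows inseminated with mixed semen of both breeds, and a leptin receptor genotype told the fetuses apart. All sows were fed below maintenance from before mid-pregnancy until the fetuses were taken. By the paper, the fetuses were picked for low or high body weight within each genotype. Sows were told apart by the first 4 digits of the fetus names, a reading that the labels do not spell out, and 5 of the 7 sows then carried both genotypes. Fetuses of 1 sow are litter mates and not fully independent, so p-values measure the spread between these fetuses.

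KIT is the receptor of stem cell factor, the protein encoded by KITLG, and the pair sustains melanocyte precursors, mast cells, germ cells, blood progenitors and the pacemaker cells of the gut. In pigs KIT is also the dominant white coat colour gene, and white breeds such as Large White commonly carry alleles with additional KIT copies, including a copy with a changed splice donor after exon 17. PDGFRA encodes a receptor for platelet-derived growth factors that marks connective tissue progenitors in muscle, and KDR encodes the main receptor for vascular endothelial growth factor A on endothelial cells.

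In the table KIT lies at chr8:41402252-41493763, PDGFRA at chr8:40962624-41021495 and KDR at chr8:41809114-41856420 of Sscrofa11.1, so that PDGFRA is 381 kb to the left and KDR 315 kb to the right of KIT. KITLG lies on another chromosome, at chr5:94016986-94110215. The exon whose splice donor differs between KIT alleles is shown from the reference genome, because it is the place where RNA of a single copy could be told from RNA of another. In the RefSeq transcript it covers chr8:41485889-41486011 on the plus strand, is 123 bases long, the length of 41 codons, and belongs to the kinase domain. The exon is followed here by 20 bases of the intron up to position 41486031, and the capitals mark the splice donor.
KIT exon 17 with its donor: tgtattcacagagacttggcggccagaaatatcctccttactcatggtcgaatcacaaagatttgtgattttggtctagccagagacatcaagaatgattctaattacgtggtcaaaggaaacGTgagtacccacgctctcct
The deposited values give 1 level per gene and fetus. They separate neither exons nor copies, and the KIT copy number of the fetuses was not measured in the data used here.

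Levels are in FPKM, fragments scaled to transcript length and to the mapped fragments of a library, which can be compared between genes. KIT was the gene that separated the genotypes. It ranged from 6.04 to 14.3 FPKM with a median of 9.00 FPKM in the 16 crossbred fetuses, against 3.44 to 5.62 FPKM with a median of 4.47 FPKM in the 16 Iberian fetuses. The groups did not overlap: the lowest crossbred fetus, 1338F6L, stood 0.424 FPKM above the highest Iberian fetus, 1338F3L, and both came from sow 1338. The means were 9.48 ± 2.01 FPKM in crossbred fetuses, against 4.47 ± 0.596 FPKM in Iberian fetuses (n = 16 each, SD), and differed by 0.99 on the log2(FPKM + 0.5) scale (SE 0.08). Among all loci tested in this comparison, 2 (0.0119%) had every crossbred fetus above every Iberian fetus, KIT and an unnamed locus on chromosome 1. A total of 89 loci, KIT included, had a log2 difference at least as large as that of KIT.

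**Figure D1:**
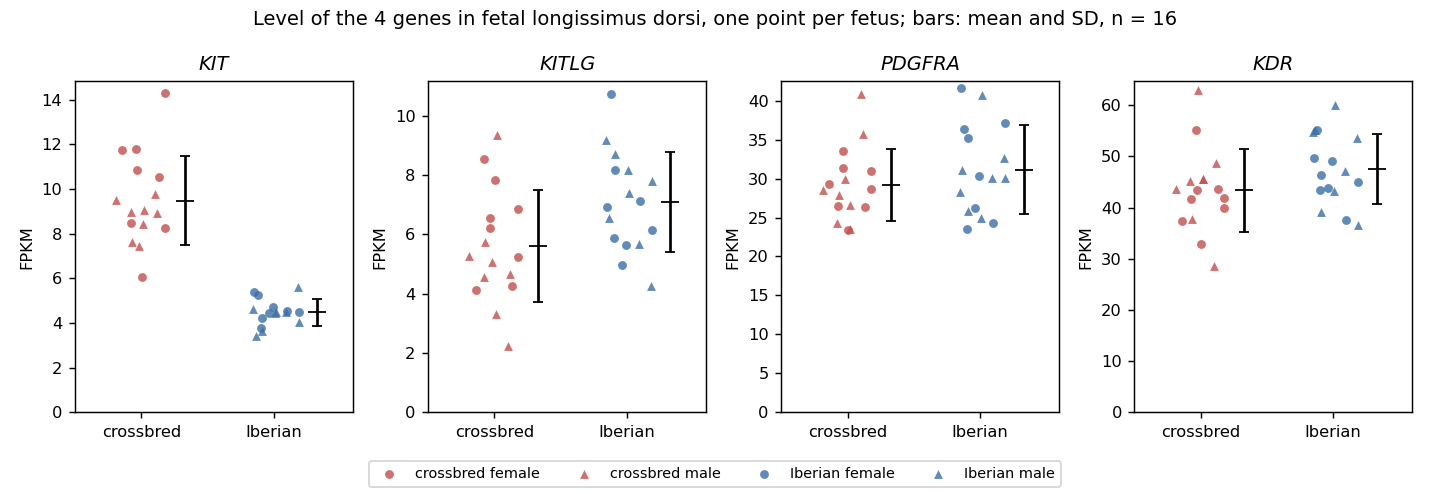
FPKM (y axis) of KIT, KITLG, PDGFRA and KDR in each of the 16 crossbred and 16 Iberian fetuses, with circles for females, triangles for males and bars for the mean and SD. KIT does not overlap between the genotypes (lowest crossbred fetus 6.04 FPKM, highest Iberian fetus 5.62 FPKM), whereas the other 3 genes overlap widely.

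The ligand was lower on average in crossbred fetuses, with much overlap. KITLG ranged from 2.25 to 9.34 FPKM with a median of 5.26 FPKM in crossbred fetuses, against 4.26 to 10.7 FPKM with a median of 7.03 FPKM in Iberian fetuses. The means were 5.62 ± 1.89 FPKM in crossbred fetuses, against 7.08 ± 1.69 FPKM in Iberian fetuses (n = 16 each, SD), and the log2 difference was -0.34 (SE 0.14). Of the crossbred fetuses 3 lay above the Iberian median, and 14 of the 16 Iberian fetuses lay above the crossbred median. The lowest ligand level was in the crossbred male 1340F5L and the highest in the Iberian female 1404F2L.

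The flanking receptor genes had ranges that overlapped widely between the genotypes. PDGFRA ranged from 23.4 to 40.9 FPKM with a median of 28.6 FPKM in crossbred fetuses, against 23.5 to 41.6 FPKM with a median of 30.2 FPKM in Iberian fetuses, a log2 difference of -0.08 (SE 0.09). KDR ranged from 28.5 to 63.0 FPKM with a median of 43.5 FPKM in crossbred fetuses, against 36.7 to 60.0 FPKM with a median of 46.8 FPKM in Iberian fetuses, a log2 difference of -0.14 (SE 0.09). Both differences were negative and depended on how litters were treated: with the sow as a block they were -0.23 for PDGFRA and -0.21 for KDR, while those of KIT and KITLG were 0.90 and -0.22. The median log2 difference over all loci tested was 0.03.

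The order of the levels changed between the genotypes only in its lower part. In crossbred fetuses the means ran from KDR (43.4 ± 8.10 FPKM) over PDGFRA (29.2 ± 4.62 FPKM) and KIT to KITLG. In Iberian fetuses they ran from KDR (47.5 ± 6.88 FPKM) over PDGFRA (31.1 ± 5.73 FPKM) and KITLG to KIT (SD, n = 16 each). Each step in either order exceeded the SD of both genes concerned. KIT thus stood above its ligand in the mean of crossbred fetuses and below it in the mean of Iberian fetuses. Ranked by mean among the loci tested, KIT lay at the 63.1 percentile in crossbred and the 46.0 percentile in Iberian fetuses, while KDR lay above the 90th percentile in both (90.7 in crossbred and 92.1 in Iberian fetuses).

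Because all genes of a fetus share 1 library, KIT was also set against the other 3 genes within each fetus. The ratio of KIT to KITLG ranged from 0.773 to 4.35 with a median of 1.85 in crossbred fetuses, against 0.419 to 1.32 with a median of 0.620 in Iberian fetuses. The highest crossbred ratio was that of 1340F5L, the fetus with the lowest ligand level, and 12 of the 16 crossbred fetuses lay above every Iberian fetus. The ratio of KIT to PDGFRA did not overlap, with 0.239 to 0.498 in crossbred and 0.110 to 0.187 in Iberian fetuses. The ratio of KIT to KDR was 0.118 to 0.358 in crossbred and 0.0624 to 0.121 in Iberian fetuses, and only the crossbred male 1417F7L, the fetus with the highest KDR level, lay within the Iberian range. Between the 2 flanking genes themselves, the ratio of PDGFRA to KDR averaged 0.700 ± 0.218 in crossbred and 0.659 ± 0.102 in Iberian fetuses (SD, n = 16 each).

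**Figure D2:**
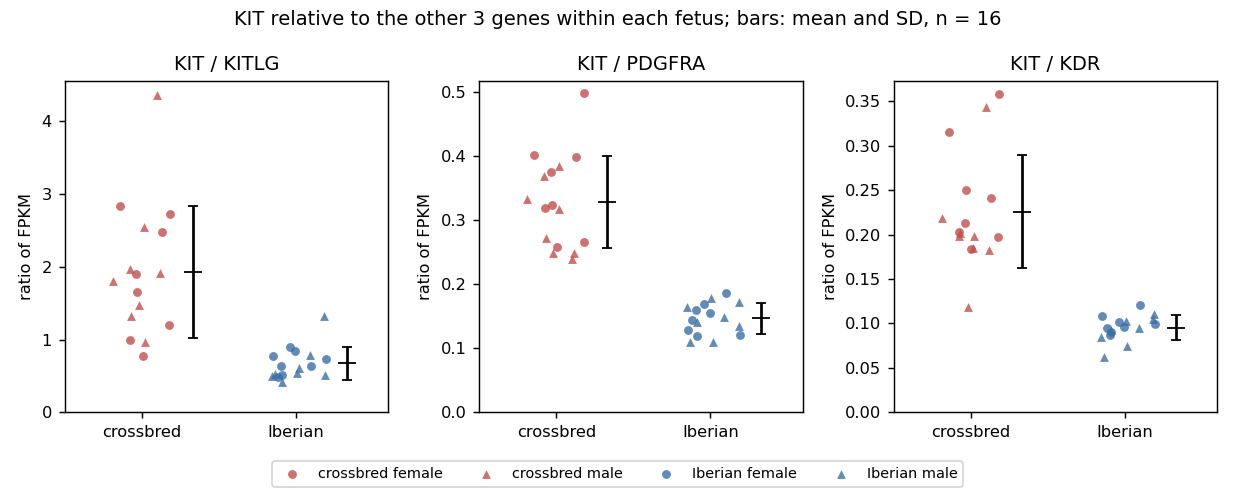
Ratio of KIT to KITLG, PDGFRA and KDR (FPKM over FPKM, y axes) within each of the 16 crossbred and 16 Iberian fetuses, with circles for females, triangles for males and bars for the mean and SD. The ratio to PDGFRA separates the genotypes fully, the ratio to KDR in all but 1 crossbred fetus (0.118) and the ratio to KITLG in 12 of 16 crossbred fetuses.

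The ratio of the genotype means was set beside the ratios that extra KIT copies would give if RNA scaled with copies. A chromosome with 2 copies against a chromosome with 1 copy makes 3 copies instead of 2, a ratio of 1.5, and a chromosome with 3 copies makes a ratio of 2. The measured ratio of mean KIT in crossbred over Iberian fetuses was 2.12 (SE 0.133). This SE takes the fetuses as independent, although by the paper the semen came from 2 boars of each breed. Single crossbred fetuses ran from 1.35 to 3.19 times the Iberian mean, with a median of 2.01. Of them, 15 of 16 lay at or above 1.5, and 9 lay at or above 2 while 7 lay below it. In order of size, neighbouring fetuses were over 0.3 apart at 2 places, between 1338F6L (1.35) and 1417F7L (1.67) and between 1417F9L (2.63) and 1340F8L (3.19). Each of these steps set off 1 fetus at an end of the range. The limit of 0.3 was not set in advance, and whether the fetuses form groups was not tested. KIT copy number was not measured and its part in these values was not tested, and in bulk muscle fewer cells of a type and less RNA per cell cannot be told apart. The same ratio was 0.793 (SE 0.0816) for KITLG, 0.938 (SE 0.0569) for PDGFRA and 0.913 (SE 0.0540) for KDR.

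Within litters, crossbred fetuses had more KIT RNA than their Iberian litter mates in 5 of the 5 sows with both genotypes. That count follows from the lack of overlap between the genotypes and adds nothing to it, so only the sizes of the ratios are of use. The crossbred mean was 1.46 times the Iberian mean in sow 1338, 1.87 times in sow 1401, 2.07 times in sow 1404, 2.18 times in sow 1417 and 2.22 times in sow 1340. Sow 1338 gave the smallest ratio, and its single Iberian fetus had the highest KIT level of the Iberian group. For KITLG the ratios within sows ran from 0.560 in sow 1340 to 1.76 in sow 1338, and 2 of 5 were above 1. For PDGFRA they ran from 0.771 to 0.891 with none of the 5 above 1, and for KDR from 0.709 to 1.00 with 1 of 5 above 1. Several of these ratios rest on 1 fetus of a genotype: sows 1338 and 1340 each had 1 Iberian fetus and sow 1404 had 1 crossbred fetus.

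**Figure D3:**
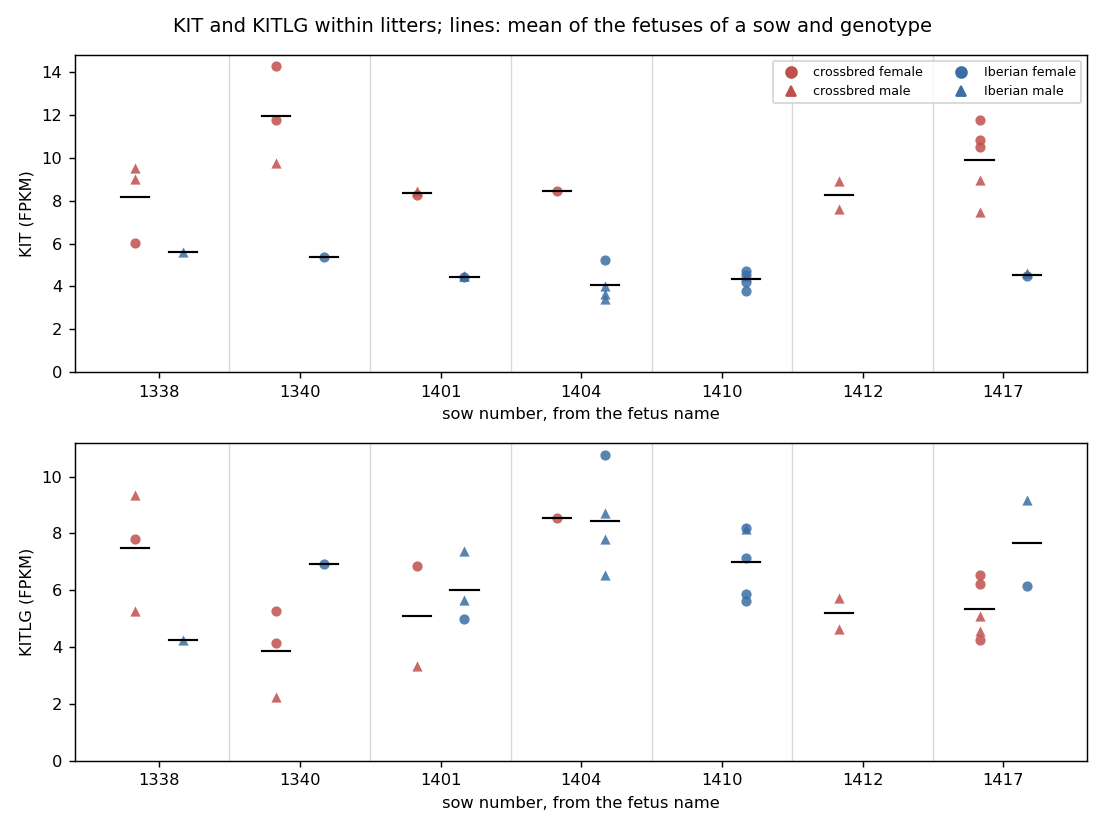
KIT (upper panel) and KITLG (lower panel) in FPKM by sow, with crossbred fetuses to the left of their Iberian litter mates and lines at the mean of a sow and genotype. KIT is higher in crossbred fetuses in each of the 5 sows with both genotypes, which follows from the lack of overlap between the genotypes. KITLG is higher in crossbred fetuses in 2 of these 5 sows.

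The coefficient of variation of KIT was 21.2% in crossbred and 13.3% in Iberian fetuses, a difference in spread that was not tested. It was 25.1% in crossbred and 11.4% in Iberian females, but 9.55% in crossbred and 15.5% in Iberian males, so the order held in females and turned round in males. Among crossbred fetuses the mean KIT level was highest in sow 1340 (11.9 FPKM, 3 fetuses), followed by sow 1417 (9.92 FPKM, 5 fetuses), and the other 4 sows had means of 8.20 to 8.47 FPKM. Sows held 47.0% of the variance of KIT among the 15 crossbred fetuses with a litter mate of their genotype, which did not pass the test (F ratio 2.22, permutation p = 0.14, adjusted p = 0.50 over 8 tests). Among Iberian fetuses they held 16.2% (permutation p = 0.60, adjusted p = 0.65). The other 3 genes did not pass in either genotype, with adjusted p-values of 0.50 to 0.65.

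No sex difference of the 4 genes passed the test in either genotype. In crossbred fetuses KIT was 10.2 ± 2.57 FPKM in females and 8.72 ± 0.832 FPKM in males (SD, n = 8 each), a log2 difference of 0.19 (SE 0.14; limma adjusted p = 0.49). The 5 highest crossbred values, 10.5 to 14.3 FPKM, were all of females of sows 1340 and 1417, and the lowest value was also of a female, so the female range contained the male range of 7.47 to 9.78 FPKM. In Iberian fetuses KIT was 4.60 ± 0.524 FPKM in females and 4.35 ± 0.672 FPKM in males (SD, n = 8 each; log2 difference 0.08, SE 0.09, limma adjusted p = 1.00).

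KITLG had the largest of the sex differences: crossbred females averaged 6.21 ± 1.59 FPKM and crossbred males 5.03 ± 2.08 FPKM (SD, n = 8 each; log2 difference 0.33, SE 0.21, limma adjusted p = 0.44). In Iberian fetuses its log2 difference was -0.05 (SE 0.16, limma adjusted p = 1.00). PDGFRA and KDR had log2 differences of females over males of -0.03 and -0.07 in crossbred fetuses and of 0.05 and -0.06 in Iberian fetuses, with limma adjusted p-values of 0.80 to 1.00. Thus 0 of 4 genes were called, against 21 (0.125%) of all loci in crossbred and 19 (0.116%) in Iberian fetuses by limma. An unadjusted p under 0.05 was reached by 2503 loci in crossbred and by 370 loci in Iberian fetuses, and by 0 of the 4 genes in either. Loci counted as called when the adjusted p did not exceed 0.05 and the fold reached 1.3.

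The sex effect also did not differ between genotypes by test. The interaction was 0.38 on the log2 scale for KITLG (SE 0.27, limma adjusted p = 0.83), 0.11 for KIT (SE 0.17, limma adjusted p = 0.88), -0.08 for PDGFRA and -0.01 for KDR. None of all loci was called for it (0%), and 850 of 17345 had an unadjusted p under 0.05 by limma.

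No relation between receptor and ligand passed the test within a genotype. Between KIT and KITLG, Pearson's r was -0.24 in crossbred fetuses (permutation p = 0.36, adjusted p = 0.62; rho -0.24, permutation p = 0.38, adjusted p = 0.76) and -0.13 in Iberian fetuses (permutation p = 0.62, adjusted p = 0.88; rho -0.11, permutation p = 0.67, adjusted p = 0.99; n = 16 each). Without the 2 fetuses with the most extreme KIT levels, r was -0.14 in crossbred and 0.11 in Iberian fetuses. None of the 12 relations among the 4 genes passed after adjustment over all 12. The nearest was PDGFRA with KDR in Iberian fetuses, with r = 0.60 (permutation p = 0.015, adjusted p = 0.18) and rho = 0.67 (permutation p = 0.0053, adjusted p = 0.064), and r = 0.51 without the 2 fetuses farthest from the PDGFRA median. In crossbred fetuses the same pair had r = -0.11 (permutation p = 0.69, adjusted p = 0.88) and rho = 0.044 (permutation p = 0.87, adjusted p = 0.99), and r = 0.34 without 1340F5L and 1412F5L. KITLG with PDGFRA in crossbred fetuses had r = -0.52 (permutation p = 0.040, adjusted p = 0.24) and rho = -0.29 (permutation p = 0.28, adjusted p = 0.67), but r = -0.02 without 1338F2L and 1340F5L, so it rested on these 2 fetuses.

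The other genes around KIT were tested between the genotypes in the fit over 16750 loci, of which limma called 227 (1.36%), 142 (0.848%) higher and 85 (0.507%) lower in crossbred fetuses, and 2996 (17.9%) had an unadjusted p under 0.05. After rescaling the libraries by the median of ratios this split was 139 higher and 128 lower. Within 1 Mb of KIT, members left out, 0 of 11 loci tested were called and 0 had an unadjusted p under 0.05. Their log2 differences ran from -0.15 for LNX1, a ubiquitin ligase gene, to 0.14 for CHIC2, a membrane protein gene. CHIC2 averaged 8.68 FPKM in crossbred fetuses, against 7.74 FPKM in Iberian fetuses (limma adjusted p = 0.34), and LNX1 averaged 0.605 FPKM in crossbred fetuses, against 0.732 FPKM in Iberian fetuses (limma adjusted p = 0.39). The other 9 loci carry only Ensembl numbers. ENSSSCG00000031636, in the same span as LNX1, averaged 17.6 FPKM in crossbred fetuses, against 15.9 FPKM in Iberian fetuses (log2 difference 0.12), and ENSSSCG00000008845, to the right of KDR, averaged 10.3 FPKM in crossbred fetuses, against 9.64 FPKM in Iberian fetuses (log2 difference 0.07). The remaining 7 share 1 span beyond it, so that reads may be split among them, and had log2 differences of -0.11 to 0.10.

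Within 5 Mb, 0 of 49 loci were called by limma and 3 (6.12%) had an unadjusted p under 0.05, and within 10 Mb 0 of 70 were called and 6 (8.57%) had such a p, beside 17.9% over all loci. With 1.36% of all loci called, a count of 0 among so few loci sets the neighbourhood apart from no other. The median log2 difference was 0.02 within 5 Mb and 0.03 within 10 Mb. A single locus exceeded KIT, and it is named after its values were seen: an uncalled locus labelled SNORA26, a small nucleolar RNA, 1797 kb to the left (log2 difference 2.19, SE 0.80, limma adjusted p = 0.15). It was above 0 in 5 of 16 crossbred and listed at 0 in all Iberian fetuses. A second locus with that name and span was above 0 in all fetuses and had a log2 difference of 0.07. Among the loci tested within 1 Mb, KIT was the single one with a log2 difference above 0.14.

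**Figure D4:**
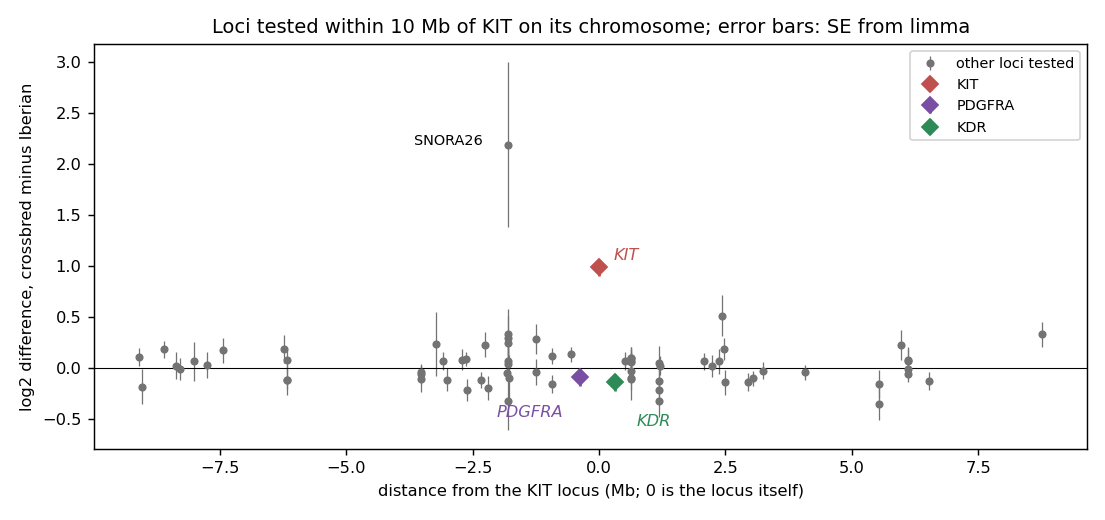
Log2 difference, crossbred minus Iberian, on the log2(FPKM + 0.5) scale (y axis) of the loci tested within 10 Mb of KIT against their distance from it in Mb (x axis), with SE bars from limma. KIT stands at 0.99, PDGFRA at -0.08 and KDR at -0.14, and the single locus above KIT is SNORA26 at 2.19, which was not called.

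Downstream of the receptor, the genes of KIT signalling did not stand apart from all loci in their counts. The list held adaptors, kinases, phosphatases and brakes, 60 of its 63 genes were tested and limma called 0, where 1.36% of all loci were called, with 40 differences above and 20 below 0 and a median of 0.04 on the log2 scale, beside 0.03 over all loci. Unadjusted, 11 of the 60 (18.3%) had a p under 0.05, beside 17.9% of all loci. The smallest p-values were those of SH2B2, an adaptor of receptor tyrosine kinases, with 38.4 ± 6.82 FPKM in crossbred fetuses, against 29.9 ± 6.52 FPKM in Iberian fetuses (log2 difference 0.37, limma adjusted p = 0.059), and of DOK1, a docking protein that dampens kinase signalling, with 1.46 ± 0.255 FPKM in crossbred fetuses, against 2.21 ± 0.959 FPKM in Iberian fetuses (log2 difference -0.40, limma adjusted p = 0.091; SD, n = 16 each).

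Of 10 transcription factors tested that are known to act on KIT, limma called 0, where 1.36% of all loci were called. A count of 0 among so few genes does not set the list apart from all loci. Their log2 differences were above 0 for 5 and below 0 for 5, with a median of -0.03. An unadjusted p under 0.05 was reached by 4 (40%), beside 17.9% of all loci. RUNX1, a factor of blood stem cells, averaged 3.13 ± 0.754 FPKM in crossbred fetuses, against 2.47 ± 0.514 FPKM in Iberian fetuses (limma adjusted p = 0.11), and LMO2, another factor of blood formation, 15.4 ± 2.92 FPKM in crossbred fetuses, against 17.8 ± 2.42 FPKM in Iberian fetuses (limma adjusted p = 0.16; SD, n = 16 each). MITF, a melanocyte factor that KIT signalling acts on, averaged 2.40 FPKM in crossbred fetuses, against 2.19 FPKM in Iberian fetuses. Of 4 proteases known to cut the membrane-bound ligand 0 were called and 0 had an unadjusted p under 0.05. Over all loci these shares were 1.36% and 17.9%. The proteases had a median log2 difference of -0.11. The nearest were ADAM33 (14.2 FPKM in crossbred, 15.9 FPKM in Iberian fetuses) and MMP9 (0.172 ± 0.297 FPKM in crossbred, 1.55 ± 4.87 FPKM in Iberian fetuses; n = 16 each, SD), with limma adjusted p-values of 0.40 and 0.62. The Iberian mean of MMP9 rested on fetus 1404F5L with 19.4 FPKM and was 0.360 FPKM without it, and the medians were 0.0781 FPKM in crossbred fetuses, against 0.101 FPKM in Iberian fetuses.

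Relatives and ligands of the flanking receptors were not called either. Of 7 related receptors tested limma called 0, where 1.36% of all loci were called. An unadjusted p under 0.05 was reached by 1 (14.3%), beside 17.9% of all loci. Of the differences 2 were above and 5 below 0, with a median of -0.15. PDGFRL, a receptor-like protein, averaged 19.5 ± 6.12 FPKM in crossbred fetuses, against 25.8 ± 10.5 FPKM in Iberian fetuses (limma adjusted p = 0.22), and CSF1R, the macrophage growth factor receptor, 11.4 ± 3.87 FPKM in crossbred fetuses, against 14.3 ± 4.98 FPKM in Iberian fetuses (limma adjusted p = 0.31; SD, n = 16 each). Of 12 ligands 0 were called and 2 (16.7%) had an unadjusted p under 0.05. Their differences were above 0 for 7 and below 0 for 5, with a median of 0.06. The PDGFRA ligand gene PDGFA averaged 18.1 ± 1.93 FPKM in crossbred fetuses, against 16.1 ± 2.42 FPKM in Iberian fetuses (limma adjusted p = 0.18), and VEGFC, a ligand of KDR and of its lymphatic relative, 3.24 ± 0.775 FPKM in crossbred fetuses, against 4.20 ± 1.37 FPKM in Iberian fetuses (limma adjusted p = 0.19; SD, n = 16 each).

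The marker lists of cells known to carry KIT differed in level, with mast cell genes low. Of the melanocyte genes, SLC45A2 and SLC24A5 averaged above KIT in Iberian fetuses (KIT 4.47 FPKM). In crossbred fetuses (KIT 9.48 FPKM) no melanocyte gene did. Of the 14 melanocyte genes with a locus, 7 averaged under 0.5 FPKM over all fetuses. Those 7 included the pigment cell genes TYR, TYRP1, PMEL, MLANA, TRPM1 and MC1R. CD34, from the blood progenitor list, averaged above KIT in both genotypes. Of 16 mast cell markers 10 had a locus and 3 were tested, 2 of them (66.7%) with an unadjusted p under 0.05, beside 17.9% of all loci. CPA3 was listed at 0 in every fetus, and the summed level of the mast cell markers was 2.11 to 4.01 FPKM in crossbred and 2.43 to 5.70 FPKM in Iberian fetuses. MS4A2, a chain of the mast cell IgE receptor, averaged 0.317 ± 0.126 FPKM in crossbred fetuses, against 0.505 ± 0.272 FPKM in Iberian fetuses (limma adjusted p = 0.20), and GATA2 0.776 ± 0.160 FPKM in crossbred fetuses, against 0.937 ± 0.172 FPKM in Iberian fetuses (limma adjusted p = 0.23; SD, n = 16 each). Of 15 melanocyte markers 14 had a locus and 7 were tested, 3 of them (42.9%) with an unadjusted p under 0.05, beside 17.9% of all loci. The summed level of the melanocyte markers was 20.5 to 26.4 FPKM in crossbred and 20.0 to 27.0 FPKM in Iberian fetuses. Among the pigment cell genes MC1R was listed at 0 in every fetus, and TYR and MLANA averaged 0.00822 and 0 FPKM in crossbred and 0.0131 and 0.0187 FPKM in Iberian fetuses. An exact 0 in this table can also be a locus that was not quantified, since the collagen genes COL1A1 and COL3A1 are both listed at 0 in the Iberian fetus 1417F3L, while none of KIT, KITLG, PDGFRA and KDR is at 0 in any fetus. Other melanocyte genes were near the level of KIT in Iberian fetuses but below it in crossbred fetuses. SLC45A2 averaged 5.28 ± 1.21 FPKM in crossbred fetuses, against 6.17 ± 1.06 FPKM in Iberian fetuses. SLC24A5 averaged 4.76 ± 2.12 FPKM in crossbred fetuses, against 4.59 ± 1.42 FPKM in Iberian fetuses (n = 16 each, SD). The nearest to a call were EDNRB, the endothelin receptor of melanoblasts, with 3.55 ± 0.696 FPKM in crossbred fetuses, against 4.30 ± 0.815 FPKM in Iberian fetuses (limma adjusted p = 0.13), and OCA2, with 4.74 ± 1.48 FPKM in crossbred fetuses, against 3.60 ± 0.940 FPKM in Iberian fetuses (limma adjusted p = 0.16; SD, n = 16 each). The summed levels of both lists overlapped between the genotypes, and the median was 3.35 FPKM in crossbred fetuses, against 3.96 FPKM in Iberian fetuses, for mast cells and 22.9 FPKM in crossbred fetuses, against 23.4 FPKM in Iberian fetuses, for melanocytes. The summed level of the blood progenitor markers was 49.8 to 71.2 FPKM in crossbred and 52.8 to 76.3 FPKM in Iberian fetuses, most of it from CD34, a gene of endothelium and connective tissue as well, with 31.4 ± 7.36 FPKM in crossbred fetuses, against 36.0 ± 6.59 FPKM in Iberian fetuses (n = 16 each, SD). Of 7 blood progenitor genes tested, 4 were below and 3 above 0 in log2 difference. An unadjusted p under 0.05 was reached by 3 of them (42.9%, beside 17.9% of all loci), RUNX1, HLF and PROM1, all with higher crossbred means. HLF averaged 5.83 ± 2.15 FPKM in crossbred fetuses, against 4.50 ± 0.889 FPKM in Iberian fetuses (limma adjusted p = 0.18). PROM1 averaged 6.47 ± 1.26 FPKM in crossbred fetuses, against 5.50 ± 1.52 FPKM in Iberian fetuses (limma adjusted p = 0.27).

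Markers of other cell types in the muscle gave 0 calls as well, but 9 of 10 adipocyte genes had an unadjusted p under 0.05. The same held for 5 of 13 fibroblast, 4 of 14 endothelial, 3 of 9 fibre and 2 of 6 myogenic progenitor genes. It held for 2 of 9 macrophage, 2 of 7 gut pacemaker and smooth muscle, 1 of 7 Schwann cell and 0 of 8 erythroid genes. Over all 17 lists 183 loci were tested, limma called 0 (1.36% of all loci were called) and 51 (27.9%) had an unadjusted p under 0.05, beside 17.9% of all loci. Muscle fibre genes dominated, as ACTA1, skeletal actin, with 7172 FPKM in crossbred fetuses, against 6426 FPKM in Iberian fetuses. The log2 differences were above 0 for 9 of 9 fibre genes (median 0.32) and 6 of 6 myogenic progenitor genes (median 0.31), and below 0 for 10 of 10 adipocyte genes (median -0.98). Of 14 endothelial genes, which share their cell with KDR, 12 were below 0 (median -0.13), and of 13 fibroblast genes, which share theirs with PDGFRA, 10 were below 0 (median -0.21). Of the 3 fibroblast genes above 0, COL1A1 (log2 difference 0.63, SE 0.76) and COL3A1 (0.50, SE 0.77) owe their sign to the 0 listed in 1417F3L. Without that fetus their log2 differences were -0.14 and -0.30, and over the other 11 fibroblast genes 10 were below 0 (median -0.22). For macrophages 7 of 9 (median -0.16), for Schwann cells 5 of 7 (median -0.07) and for blood progenitors 4 of 7 (median -0.12) were below 0, while 5 of 7 genes of gut pacemaker and smooth muscle cells (median 0.12) and 7 of 8 erythroid genes (median 0.17) were above 0. The summed adipocyte level reached 780 FPKM in an Iberian fetus and 196 FPKM at most in crossbred fetuses. Leaving out the 4 Iberian fetuses with the highest sums, a step added after seeing the data, left the log2 difference of KIT at 0.97 and that of KITLG at -0.29. The part of these cell types in the differences was not tested.

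**Figure D5:**
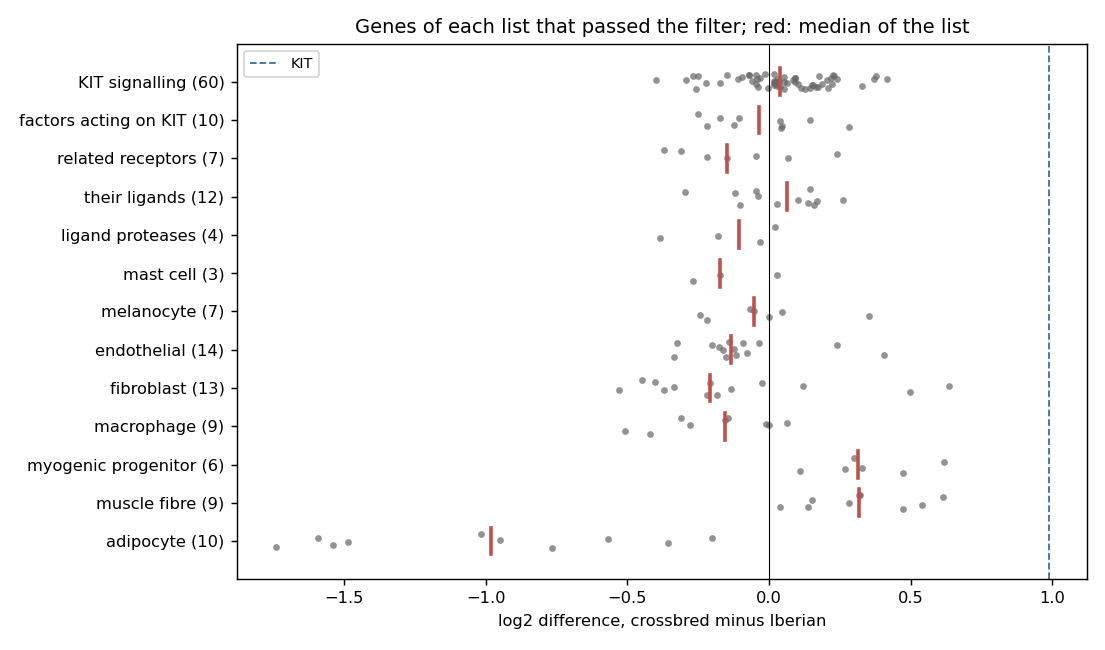
Log2 difference, crossbred minus Iberian (x axis), of the genes that passed the filter on low values in the lists drawn, with the number of such genes beside each list's name, a red line at the list's median and a dashed line at KIT (0.99). The lists of blood progenitor, erythroid, Schwann cell, and gut pacemaker and smooth muscle genes are not drawn. The lists of KIT signalling (median 0.04) and of factors acting on KIT (median -0.03) lie around 0, and no gene of any list was called.

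The genes whose levels most resembled KIT were sought by Pearson's r among 12302 loci with a symbol, as a description across fetuses that share litters and libraries. Over all 32 fetuses the 5 highest were SNORD115 (r = 0.79), CKAP5 (r = 0.74), NR2C2 (r = 0.74), BBS2 (r = 0.74) and CALML4 (r = 0.74), none of them on chromosome 8. SNORD115, a small nucleolar RNA, averaged 7.77 ± 4.19 FPKM in crossbred fetuses, against 0.593 ± 0.668 FPKM in Iberian fetuses, and NR2C2, a nuclear receptor gene, 1.41 ± 1.18 FPKM in crossbred fetuses, against 0.137 ± 0.188 FPKM in Iberian fetuses (n = 16 each, SD). A likeness over all fetuses reflects the difference between the genotypes itself. After each genotype was centred on its mean, the 5 highest were the joint locus of HTRA4 and PLEKHA2 (r = 0.77), HNRNPUL2 (r = 0.73), CBFA2T2 (r = 0.72), EXOC4 (r = 0.71) and NFKB1 (r = 0.70). On that scale KIT had r = 0.35 with PDGFRA, 0.15 with KDR and -0.21 with KITLG. None of the 5 centred genes was called between genotypes, and their log2 differences ran from 0.07 to 0.25.

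Depth relative to the geometric mean of the libraries, estimated from the smallest FPKM steps, was 0.712 to 1.40 in crossbred and 0.720 to 1.39 in Iberian fetuses, with a median of 1.06 in crossbred and 0.914 in Iberian fetuses. The median-of-ratios factors were 0.934 to 1.09 in crossbred and 0.965 to 1.05 in Iberian fetuses, and 14921 to 16877 loci exceeded 0.5 FPKM. Read counts were not analysed here, so no counting interval is given.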

How the data were processed

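RNA of 32 fetal longissimus dorsi samples was sequenced by the authors. The deposited values are FPKM of 30413 loci, which the authors made after trimming with Trim Galore and alignment to Sscrofa11.1. The submitters' processing notes name TopHat2 2.1.0, Bowtie2 2.2.7.0 and Cufflinks 2.2.1; the paper gives another Bowtie2 version. All library columns were mapped through their labels (0 left over). The count of reads per locus was not used here.

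A pseudocount of 0.5 was added to FPKM before log2, loci whose mean did not exceed 0.5 FPKM in any group were dropped, and the rest were fitted by limma 3.58.1 (R 4.3.3) using moderated tests and a variance trend. After Benjamini-Hochberg adjustment over all loci tested, those whose adjusted p did not exceed 0.05 and whose fold reached 1.3 were called; the interaction had no fold minimum. Differences on this scale understate the change of low genes. Relations among the 4 genes and the spread between sows were tested with two-sided permutation tests for r and one-sided ones for the F ratio, of 100000 resamples each, in Python 3.11.15 with numpy 2.4.6. The SE of a ratio of means is by the delta method.

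The 4 genes, the 17 gene lists (224 genes, 210 with a locus) and the alternatives were chosen with earlier results of these data known. Named are the 4 genes, loci tested within 1 Mb of KIT, of the lists the genes with the smallest p-values (for cell types, only those of the mast cell, melanocyte and blood progenitor lists), and the 5 genes most like KIT on each of 2 scales. MITF, ACTA1, TYR, TYRP1, PMEL, MLANA, TRPM1, SLC45A2, SLC24A5, CD34, PROM1, COL1A1, COL3A1, CPA3, MC1R and SNORA26 were named after their values were seen. Where a symbol had several loci, the one with the highest mean was used. Alternatives were other pseudocounts (0.1 and 1), a minimum of 1 FPKM or none, rescaling by the median of ratios, the sow as a block, robust variances, a sex covariate, sows with both genotypes only, and leaving out each sow and each fetus. The fit was tested on simulated data with 100 loci changed 1.5-fold and 100 changed 2-fold: the genotype comparison found 70% and 90% of them, the sex comparison of crossbred fetuses 26% and 68%. The simulated noise was normal and independent between fetuses and loci, without litters or relations between genes. These shares therefore check the fit and do not give its power in the real litters. The exon sequence is from the RefSeq annotation of Sscrofa11.1, where a gap of up to 10 bases within an exon was joined before exons were numbered. Fetal weight was not analysed because no label gives it per fetus.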

Additional observations from a re-analysis of the deposited data

How the results depend on the processing

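The log2 differences of the 4 genes kept their sign in each of the 50 alternatives of the genotype comparison. They ran from 0.90 to 1.05 for KIT and from -0.48 to -0.22 for KITLG. For PDGFRA they ran from -0.23 to -0.02 and for KDR from -0.22 to -0.07. The values nearest 0 for KIT and KITLG and farthest from 0 for PDGFRA are those with the sow as a block. The values of -0.48 for KITLG and of -0.07 and -0.22 for KDR are those without sows 1338, 1340 and 1417. Since the genotypes did not overlap in KIT, leaving out fetuses or sows could not turn its sign. Other filters on low values, robust variances and the sex covariate left the 4 differences as they were. The KIT ratio between genotypes ran from 2.01 to 2.12 over 4 alternatives, and 2.01 was the ratio of medians instead of means. No sex, interaction, relation or sow test of the 4 genes passed under any alternative run. The number of loci called between genotypes depended on the fetuses used: against 227, it was 48 with the sow as a block (40 of them shared), 528 without sow 1338, 126 without sow 1340, 38 without sow 1404, 368 without sow 1410, 144 without sow 1412 and 39 without sow 1417. Leaving out single fetuses gave 132 to 339 called loci. It was 147 without 1340F5L and 1410F6L, the 2 libraries whose values carry more than 6 digits, and 35 without the 4 fetuses highest in adipocyte genes, both added after seeing the data. The causes were not tested. Of the calls 62.6% were higher in crossbred fetuses, 52.1% after median-of-ratios rescaling, 47.2% with the 5 sows that carried both genotypes and 46.5% without sow 1410. Within 5 Mb of KIT, 1 unnamed locus was called without the filter on low values and 1 other without sow 1338, both lower in crossbred fetuses. FPKM without counts give no counting error for low values.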

Other observations

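Within the crossbred fetuses alone, which were not part of the rule for naming genes, the loci most like KIT by Pearson's r over 16 fetuses and 12227 loci were IRF2 (r = 0.85), the joint locus of HTRA4 and PLEKHA2 (r = 0.85), DOCK2 (r = 0.84), TLR4 (r = 0.84) and MRC1 (r = 0.83). DOCK2, TLR4 and MRC1 are genes of macrophages and other white blood cells. In the Iberian fetuses alone they were ZNF79 (r = 0.88), EPCAM (r = 0.84), SLITRK5 (r = 0.82), PARD3B (r = 0.82) and SRGAP1 (r = 0.81), over 12193 loci, and no gene was among the 5 highest in both genotypes. These are the highest of many values over few fetuses and were not tested. MRC1, the mannose receptor, averaged 6.02 ± 2.44 FPKM in crossbred fetuses, against 8.25 ± 3.40 FPKM in Iberian fetuses (SD, n = 16 each; limma adjusted p = 0.19), so its mean differed in the opposite direction to that of KIT.

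Besides KIT, an unnamed locus on chromosome 1 (142035568 to 142089174), which starts at the same base as the SNORD115 locus, had every crossbred fetus (0.479 to 3.76 FPKM) above every Iberian fetus (0 to 0.431 FPKM). The reverse was seen at 1 locus, ARSE on the X chromosome, with 1.49 to 3.12 FPKM in crossbred and 3.34 to 7.53 FPKM in Iberian fetuses.

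Among 16 groups of 8 fetuses (4 genes by genotype and sex), no fetus stood apart from its group by Dixon's criterion.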
